A study of Mus musculus with 8 samples.

Results

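The genes described here make peptides, carry them to the cell surface on MHC class I molecules, or switch that route on: H2-K1, H2-D1, B2m, Tap1, Tap2, Tapbp, Psmb8, Psmb9, Psmb10 and Nlrc5. They were taken by symbol from the deposited gene table, where each of the 10 names matched 1 row of 54532, and all 10 were among the 13171 genes with a mean of at least 0.5 FPKM (fragments per kilobase of gene, scaled for depth) over the 8 libraries. The libraries came from brown adipose tissue of mice, 4 labelled WT (WT 1 to WT 4) and 4 labelled OGTBKO (OGTBKO 1 to OGTBKO 4), in which Ogt was knocked out in brown adipocytes. OGT attaches O-linked N-acetylglucosamine to proteins inside the cell. Both groups were kept at 23 °C on standard chow, were induced after 8 weeks, and gave tissue 2 months later with the surrounding white fat removed. The Cre driver, the deleted exons, the strain and the sex are not named in the sources used here. The labels number the samples without stating that each is a separate animal, so a p-value here reflects only how these samples spread, which may be technical.

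Ogt was lower in all 4 OGTBKO libraries (10.7 to 14.5 FPKM) than in any WT library (22.5 to 33.1 FPKM), with a log2 change of -1.03 and an adjusted p of 0.00511 (limma, Benjamini-Hochberg over the genes tested). The libraries held 13393962 to 15897920 reads assigned to genes, and mitochondrial genes took 39.4% of them in WT 3 against 25.2% to 32.2% in the other libraries. Adipoq and Plin1, genes of adipocytes in general, were abundant in each library (at least 318 and 199.6 FPKM). Of genes typical of brown adipocytes, Ucp1 measured at least 904 FPKM and Cidea at least 491 in each library. Ucp1 itself fell from 2051 ± 485 to 1006 ± 79.3 FPKM (SD, n = 4 each; limma adjusted p = 0.0113, and 0.0516 with the library total as denominator), while Cox7a1, a mitochondrial subunit also typical of these cells, rose from 93.2 ± 16.1 to 204.5 ± 13.5 FPKM (adjusted p = 0.00317). The samples, whose labels give adipocytes as the cell type, are whole tissue, so fewer cells of a type and less RNA per cell cannot be told apart. WT 3 stood apart from the other libraries for the genes described here, and the test of each of the 10 is therefore given with and without it.

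Class I molecules sit on nearly all nucleated cells and show T cells short peptides made from the cell's own proteins. The proteasome cuts the peptides, the TAP transporter moves them into the endoplasmic reticulum, and a loading complex places them on a heavy chain paired with beta-2 microglobulin. Interferon induces much of this route, including 3 catalytic subunits that replace their constitutive counterparts to form the immunoproteasome, and NLRC5 switches on class I genes from a promoter module whose parts include an X2 box and a Y box. In fat, adipocytes, endothelial cells, fibroblasts and leukocytes all carry class I molecules.

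The start-site windows of the heavy chain genes and B2m are shown because these genes share the spaced pair of motifs of that module. RefSeq windows (build GRCm38.p6, 250 bases before to 50 after a start) were matched by symbol for 8 of the 10 genes, all but Tap2 and Nlrc5. For H2-D1, Psmb8, Psmb9 and Tapbp the RefSeq start lay 364, 474, 434 and 3579 bases from the gene's 5′ end in the deposited table, and for the other 4 at most 52 bases. Printed here are the 150 bases that end just before the start, 5′ to 3′ on the strand of the gene, with TGACG (the core of an X2 box) and CCAAT or its complement ATTGG (a Y box) in capitals. H2-K1 lies on the minus strand at chr17:34000334-34000483, H2-D1 on the plus strand at chr17:35262944-35263093, and B2m on the plus strand at chr2:122147537-122147686.
H2-K1: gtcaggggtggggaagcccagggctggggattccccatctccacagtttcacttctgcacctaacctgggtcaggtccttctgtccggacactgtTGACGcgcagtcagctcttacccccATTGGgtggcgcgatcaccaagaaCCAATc
H2-D1: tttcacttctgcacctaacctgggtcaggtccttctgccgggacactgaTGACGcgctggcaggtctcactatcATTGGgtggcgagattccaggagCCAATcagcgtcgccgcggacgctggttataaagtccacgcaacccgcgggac
B2m: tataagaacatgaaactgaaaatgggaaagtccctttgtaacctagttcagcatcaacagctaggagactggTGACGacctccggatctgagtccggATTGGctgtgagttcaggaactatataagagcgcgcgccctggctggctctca
In each of these 3 windows TGACG was followed by ATTGG after 20 bases. The pair with a gap of 15 to 25 bases, searched on both strands, occurred in 143 of 32851 windows in the whole table (0.435%) and in the windows of 3 of the 8 genes. H2-K1 and H2-D1 are paralogues whose printed stretches are alike over long runs, so their matches are not independent.

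Single motifs were more common. Of the 8 windows, 5 held TGACG (H2-K1, H2-D1, B2m, Tap1 and Psmb9), against 20.81% of all windows. CCAAT was in 6 of the 8 and in 37.41% of all, and an NF-kB motif was in 3 of the 8 (H2-K1, H2-D1 and B2m) and in 8.46% of all. The interferon-type element GAANNGAAA was found in H2-K1 and H2-D1 (7.52% of all windows), and its form with 1 more A ahead of the NN was found in B2m (3.44%). All motifs were searched on both strands. None of these letters was found in the windows of Psmb8 and Psmb10. The windows of Tap1 and Psmb9, which are transcribed away from each other, overlap for most of their length, so their matches are largely the same bases. These are matches of letters, not measured sites.

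None of the 10 genes passed the test between genotypes. In limma 0 were called at an adjusted p under 0.05 (1, Psmb8, had an unadjusted p under 0.05), where 15.6% of all genes tested were called, and with voom weights on whole reads the count was also 0. The log2 change was below 0 in 8 genes and above 0 in 2, with a median of -0.25, against -0.0021 for all genes tested. When WT 3 was left out, 5 were below 0 and 5 above, with a median of -0.0050. With each library's trend on GC content and length removed, 9 were below 0 and the median was -0.41. In 0 of the 10 genes did the groups separate without overlap, against 22.5% of all genes. In WT 3 all 10 genes were at their highest level of the 8 libraries, between 1.69 times (Tap2) and 3.75 times (Psmb9) the mean of the other 3 WT libraries; with the library total as denominator WT 3 was highest for 8 of the 10, against 3.87% of all genes. WT 3 was the highest library for 19.1% of all genes tested and the lowest for 17.6%. A level at least 1.5 times the mean of the other WT libraries was seen in WT 3 for 9.57% of all genes and for 10 of the 10.

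**Figure D1:**
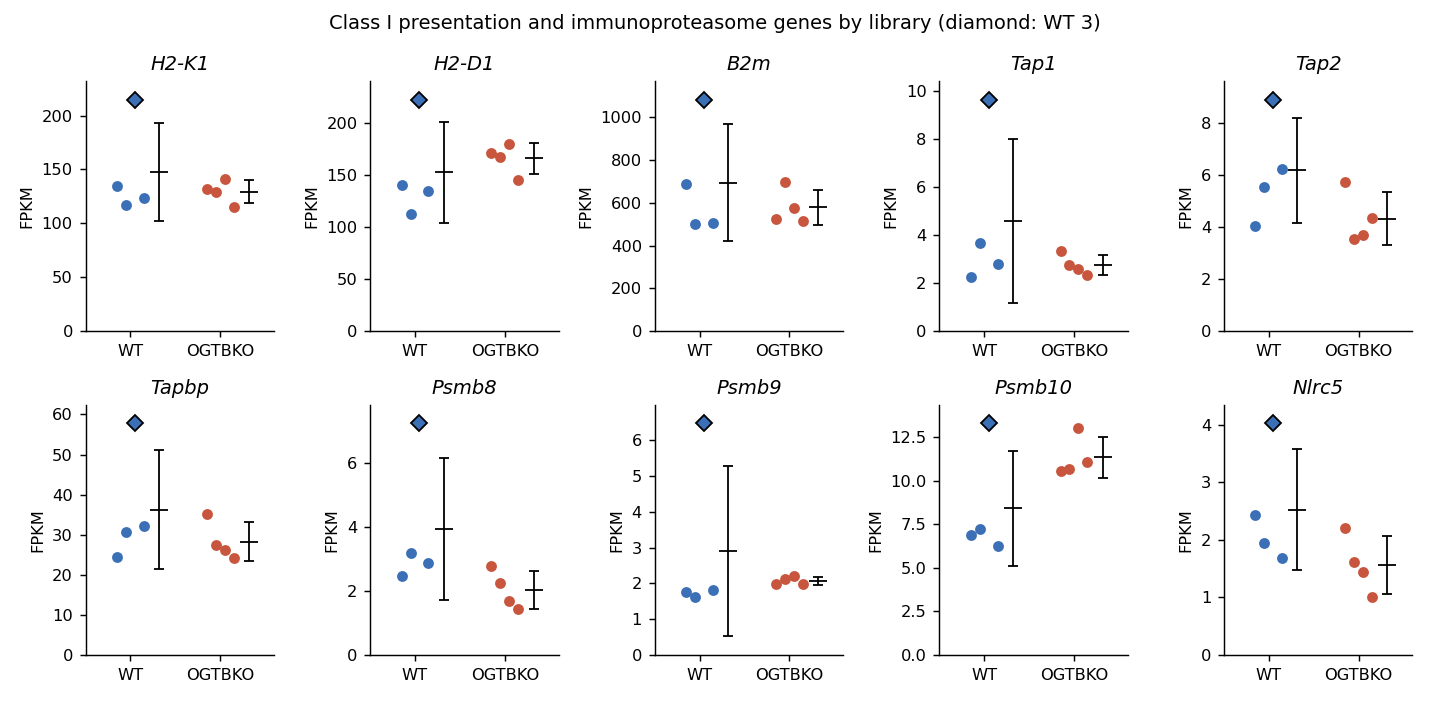
FPKM (y axis) of the 10 genes in the 4 WT and 4 OGTBKO libraries, 1 point per library, with mean and SD as bars to the right of each group and WT 3 as a diamond. WT 3 is the highest point in every panel, and without it the 2 groups separate for H2-D1, Psmb9 and Psmb10.

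The classical heavy chains H2-K1 and H2-D1, which hold the peptide, were among the more abundant transcripts. H2-K1 (ENSMUSG00000061232, chromosome 17, 33996017 to 34000333, minus strand, mm10) measured 134.8, 117.1, 215 and 124 FPKM across WT 1 to WT 4, against 132, 129, 141 and 115 FPKM across OGTBKO 1 to OGTBKO 4. Apart from WT 3 the libraries of both groups covered the same range. The WT mean was 147.6 ± 45.4 and the OGTBKO mean 129 ± 10.8 FPKM (SD, n = 4 each). The fitted log2 change was -0.15 ± 0.19 (SE; 95% interval -0.57 to 0.27; limma adjusted p = 0.626). H2-D1 (ENSMUSG00000073411, chromosome 17, 35262730 to 35267499, plus strand) measured 141, 112, 223 and 134.6 FPKM in WT tissue, against 171.6, 167.5, 180.5 and 145.9 FPKM in the OGTBKO libraries. WT 3 lay above each OGTBKO library and the other 3 WT libraries below all of them. The log2 change was 0.17 ± 0.20 (limma adjusted p = 0.60) with WT 3 and 0.36 ± 0.12 without it (adjusted p = 0.0782). With GC and length trends removed it was -0.0075, and 0.19 without WT 3 as well (adjusted p = 0.266).

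B2m, the light chain shared by all class I molecules, was the most abundant of the 10. It (ENSMUSG00000060802, chromosome 2, 122147686 to 122153083, plus strand) measured 685, 501, 1081 and 507 FPKM in WT tissue, against 525, 696, 577 and 513 FPKM in the OGTBKO libraries. WT 1 and OGTBKO 2 were close to each other below WT 3, and the remaining 5 libraries lay between 501 and 577 FPKM. The group means of 694 ± 272 and 578 ± 83.6 FPKM gave a log2 change of -0.20 ± 0.25 (interval -0.75 to 0.35; limma adjusted p = 0.615), and 0.04 without WT 3.

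TAP is a heterodimer of the products of Tap1 and Tap2. Tap1 (ENSMUSG00000037321, chromosome 17, 34187553 to 34197225, plus strand) measured 2.28, 3.69, 9.66 and 2.81 FPKM in WT, against 3.33, 2.74, 2.59 and 2.36 FPKM in OGTBKO libraries. The value in WT 3 was 2.62 times that of the next highest library, WT 2. Its log2 change was -0.46 ± 0.35 (limma adjusted p = 0.401), and -0.06 ± 0.16 without WT 3. Tap2 (ENSMUSG00000024339, chromosome 17, 34203527 to 34216321, plus strand) measured 4.04, 5.56, 8.92 and 6.23 FPKM in WT, against 5.75, 3.56, 3.69 and 4.35 FPKM in OGTBKO libraries. WT 1 and OGTBKO 1 were each nearer to the other group than to their own. The log2 change of Tap2 was -0.44 ± 0.22 (limma adjusted p = 0.204), and -0.26 without WT 3. Tapbp encodes tapasin, which bridges TAP and the empty heavy chain. Tapbp (ENSMUSG00000024308, chromosome 17, 33915899 to 33929288, plus strand) measured 24.3, 30.8, 57.8 and 32.3 FPKM in WT, against 35.2, 27.3, 26.1 and 24.2 FPKM in OGTBKO libraries, with a log2 change of -0.30 ± 0.24 (limma adjusted p = 0.438) and -0.05 without WT 3. Outside WT 3 the libraries of both groups lay between 24.2 and 35.2 FPKM.

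The immunoproteasome subunits did not share 1 direction. Psmb8 (ENSMUSG00000024338, chromosome 17, 34197721 to 34201454, plus strand), the inducible counterpart of Psmb5, measured 2.48, 3.19, 7.25 and 2.88 FPKM in WT, against 2.78, 2.25, 1.69 and 1.44 FPKM in OGTBKO libraries. The 3 lowest libraries were OGTBKO 2 to OGTBKO 4, and OGTBKO 1 lay within the WT range. Its log2 change of -0.73 ± 0.30 was the farthest from 0 of the 10 (95% interval -1.39 to -0.06, unadjusted p = 0.0356, limma adjusted p = 0.124) and stood at -0.42 ± 0.19 without WT 3 (adjusted p = 0.156). Psmb9 (ENSMUSG00000096727, chromosome 17, 34181988 to 34187764, minus strand), the counterpart of Psmb6, measured 1.75, 1.62, 6.48 and 1.81 FPKM in WT, against 1.98, 2.12, 2.20 and 1.98 FPKM in OGTBKO libraries. All 4 OGTBKO libraries were higher than WT 1, WT 2 and WT 4, and WT 3 was 2.94 times the highest of the other 7. The log2 change was -0.20 ± 0.34 (limma adjusted p = 0.725) with WT 3 and 0.21 ± 0.10 without it (adjusted p = 0.181).

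Psmb10 (ENSMUSG00000031897, chromosome 8, 105935735 to 105938444, minus strand), the counterpart of Psmb7, had the highest log2 change of the 10. It measured 6.90, 7.21, 13.3 and 6.24 FPKM in WT, against 10.5, 10.7, 13.0 and 11.1 FPKM in OGTBKO libraries. The 4 OGTBKO libraries lay above WT 1, WT 2 and WT 4 and just below WT 3. The means were 8.41 ± 3.28 and 11.3 ± 1.17 FPKM, with a log2 change of 0.47 ± 0.21 (interval -0.01 to 0.94; limma adjusted p = 0.160). Without WT 3 it was called higher (log2 0.70 ± 0.11, interval 0.45 to 0.94, limma adjusted p = 0.00962), 1 of the 10 genes against 8.53% of all genes called higher in that fit. It was called as well with array weights (log2 0.62, adjusted p = 0.0201). With the library total in place of the authors' denominator it stood at 0.58 (adjusted p = 0.0600), and with each library's trend on GC content and length removed at 0.26 (adjusted p = 0.471). Without WT 3 the groups did not overlap, the OGTBKO libraries being higher, for 3 of the 10 genes (H2-D1, Psmb9 and Psmb10) and for 15.5% of all genes. WT 3 was the highest library for all 10 genes but for 19.1% of all genes tested. Leaving it out could therefore only raise the changes of the 10, so 8.53% and 15.5% are not like backgrounds for them.

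Nlrc5, the transactivator of class I genes, had the lowest mean of the 10 in OGTBKO tissue and, through WT 3 alone, in WT tissue. Nlrc5 (ENSMUSG00000074151, chromosome 8, 94434356 to 94527272, plus strand) measured 2.44, 1.95, 4.03 and 1.69 FPKM in WT, against 2.20, 1.62, 1.43 and 0.998 FPKM in OGTBKO libraries. OGTBKO 1 was above WT 2 and WT 4, and OGTBKO 4 was the lowest library. The log2 change was -0.53 ± 0.25 (interval -1.09 to 0.04; limma adjusted p = 0.178), and -0.31 without WT 3.

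**Figure D2:**
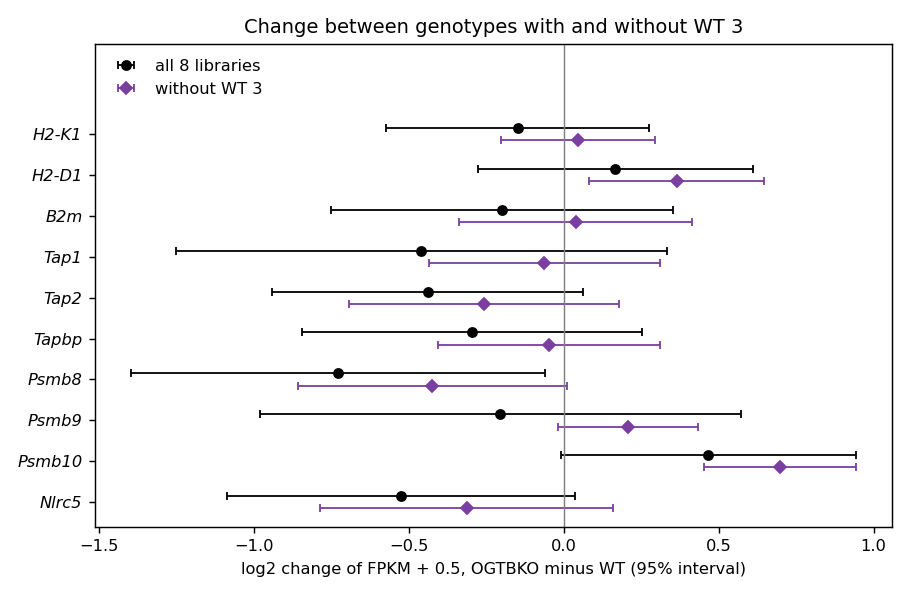
Log2 change of FPKM + 0.5, OGTBKO minus WT (x axis), with its 95% interval for each of the 10 genes (y axis), from all 8 libraries (circles) and without WT 3 (diamonds). Without WT 3 each change moves up and each interval narrows; Psmb10 goes from 0.47 to 0.70, and the interval of H2-D1 also lies above 0.

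By level in WT tissue the order was B2m, H2-D1, H2-K1, Tapbp, Psmb10, Tap2, Tap1, Psmb8, Psmb9 and Nlrc5, on the FPKM scale, which is per length. Without WT 3 the last 2 changed places, with means of 1.73 ± 0.0943 for Psmb9 and 2.03 ± 0.379 for Nlrc5 (SD, n = 3). The spread between WT libraries, which WT 3 widens for every gene, exceeded the gap between H2-D1 (152.7 ± 48.4 FPKM) and H2-K1. It also exceeded the gaps between neighbours from Psmb10 (8.41 ± 3.28) down to Nlrc5 (2.53 ± 1.05). Within each WT library, however, Psmb10 was above Tap2 and Psmb8 above Psmb9, whereas the other pairs among these changed order. B2m stood clear of the heavy chains, and Tapbp (36.3 ± 14.8) stood clear of the genes on either side of it. In OGTBKO tissue the spread was smaller and H2-D1 (166 ± 14.7 FPKM) lay above H2-K1. The order was otherwise B2m, Tapbp (28.2 ± 4.84), Psmb10, Tap2 (4.34 ± 1.0), Tap1 (2.76 ± 0.411), Psmb9 (2.07 ± 0.110), Psmb8 (2.04 ± 0.598) and Nlrc5 (1.56 ± 0.499). Neighbours in this order had ranges that did not overlap, down to Tap1 and Psmb9, whereas Psmb9, Psmb8 and Nlrc5 overlapped. Between 55 and 9845 reads lay behind each value of the 10 genes, with the fewest for Psmb8, so its values carry the most counting error.

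Of the 10 genes 7 lie on chromosome 17, and Psmb9, Tap1, Psmb8 and Tap2 fill a stretch of 34.3 kb there. Psmb9 and Tap1 overlap by 212 bases on opposite strands, and the use of strand in counting is not given in the sources used here. Tapbp overlaps Zbtb22 on the same strand by 3421 bases (Zbtb22 averaged 4.02 FPKM, log2 change 0.01), and the other genes that overlap a member averaged below 0.5 FPKM. H2-K1, H2-D1 and the H2-Q and H2-T genes are close paralogues whose reads can be shared or dropped in counting, so the split between them is uncertain.

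The ratio of the heavy chains within a library does not depend on the scaling of libraries, and it separated the groups. This ratio was singled out after the values were seen. In the WT libraries H2-D1 to H2-K1 was 1.05, 0.961, 1.04 and 1.09, whereas it was 1.30, 1.30, 1.28 and 1.27 after the knockout. WT 3 lay among the other WT libraries in this measure. The mean log2 ratio of WT libraries was 0.04 ± 0.07 and that of OGTBKO libraries 0.36 ± 0.02 (SD, n = 4 each), a difference of 0.32, or 1.25 times, and the exact two-sided permutation p of 0.0286 is the smallest that 4 against 4 allows. Without WT 3 the difference was again 0.32, and with GC and length trends removed it was 0.28; H2-D1 has 55.9% and H2-K1 54.3% GC. Whether unequal mapping of the paralogues takes part in it was not tested.

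Each inducible proteasome subunit was also set against the constitutive subunit that it replaces. Psmb8 to Psmb5 was 0.0428, 0.0381, 0.117 and 0.0327 in the WT libraries and 0.0455, 0.0383, 0.0219 and 0.0201 in the OGTBKO libraries. OGTBKO 3 and OGTBKO 4 lay below the WT range and OGTBKO 1 and OGTBKO 2 inside it. Psmb9 to Psmb6 was 0.0755, 0.0784, 0.288 and 0.0719 in WT and 0.0596, 0.0837, 0.0655 and 0.0614 in OGTBKO libraries. Psmb10 to Psmb7 was 0.541, 0.488, 0.795 and 0.461 in WT and 0.476, 0.537, 0.590 and 0.454 in OGTBKO libraries. All 3 ratios overlapped between the groups and were highest in WT 3. The log2 differences were -0.76 for Psmb8 to Psmb5, -0.65 for Psmb9 to Psmb6 and -0.13 for Psmb10 to Psmb7, with exact two-sided permutation p of 0.257, 0.143 and 0.629 (0.386, 0.386 and 0.629 adjusted over the 3). Without WT 3 they were -0.35, -0.17 and 0.04. Inducible subunits made up 21.1% of the summed FPKM of the 6 catalytic subunits in WT 3, 7.93% to 10.6% in the other WT libraries and 10.1% to 12.6% in OGTBKO libraries.

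**Figure D3:**
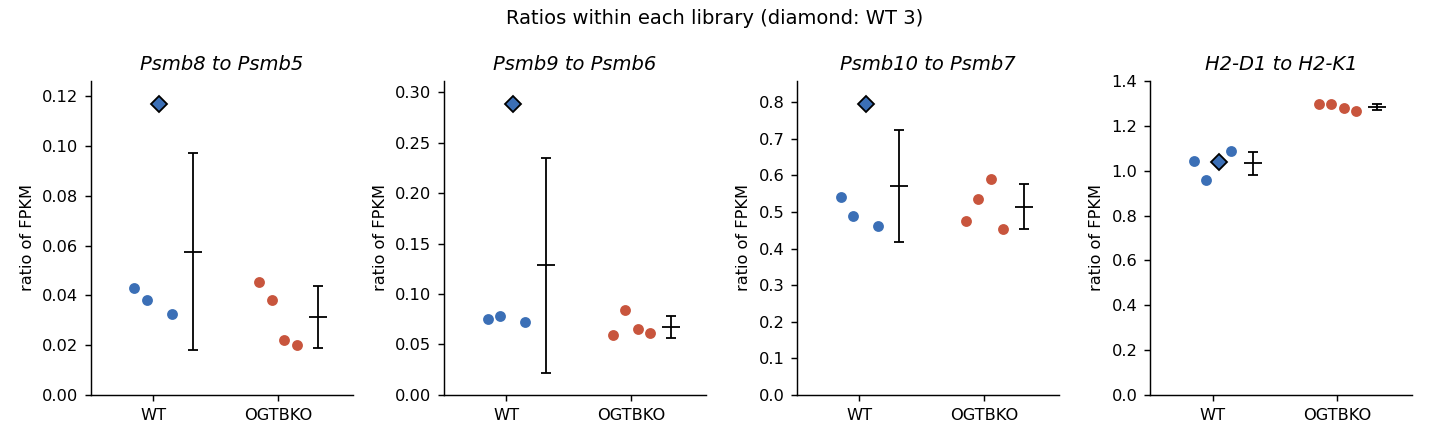
Ratio of FPKM within each library (y axis) for the 3 inducible proteasome subunits over their constitutive counterparts and for H2-D1 over H2-K1, 1 point per library, mean and SD as bars, WT 3 as a diamond. WT 3 is highest in the first 3 panels; in the fourth the OGTBKO libraries, at 1.27 to 1.30, all lie above the WT libraries, at 0.961 to 1.09.

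Of the constitutive subunits themselves 2 of 3 were called higher, against 8.11% of all genes. Psmb7 rose from 14.4 ± 1.73 to 22.1 ± 1.85 FPKM (log2 0.60 ± 0.11, limma adjusted p = 0.0113) and remained called in all 20 alternatives. Psmb6 rose from 22.9 ± 1.83 to 31.1 ± 3.90 FPKM (log2 0.43, limma adjusted p = 0.0397), a call that ended in 7 of the 8 fits with 1 library left out (0.0589 without WT 3) and with GC and length trends removed (0.0760). Psmb5 measured 73.0 ± 15.2 and 67.2 ± 8.76 FPKM (log2 -0.10, interval -0.47 to 0.27, and -0.17 without WT 3). WT 3 was the highest library for 0 of these 3, and without it 1 was called (Psmb7). Psmb10 and its counterpart Psmb7 had log2 changes of 0.70 and 0.67 without WT 3. Psmb7 lies across Nek6 on the opposite strand by 6571 bases (Nek6 averaged 1.29 FPKM). Of the other 11 subunits of the 20S core 2 were higher, Psma4 (log2 0.51, limma adjusted p = 0.0215, lost without WT 2 and without OGTBKO 4) and Psmb3 (log2 0.47, adjusted p = 0.0367, lost in 6 of the 8 such fits, 0.0625 without WT 3), and 0 were lower. The activator subunits Psme1 and Psme2, also inducible by interferon, had log2 changes of 0.22 and -0.04 (adjusted p = 0.502 and 0.880) and were both highest in WT 3.

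Among 16 tested heavy chains and class I-like molecules 1 was higher and 0 were lower, against 8.11% and 7.46% of all genes, with a median log2 change of -0.03 (0.12 without WT 3). Mr1, which presents metabolites to T cells, rose from 1.52 ± 0.815 to 3.28 ± 0.530 FPKM (log2 0.98 ± 0.26, limma adjusted p = 0.0367). The call ended in 6 of the 8 fits with 1 library left out, though not without WT 3 (adjusted p = 0.0130). The nearest after it was H2-T24 (log2 -0.52, limma adjusted p = 0.0612). Of the 10 tested genes of the H2-Q, H2-T and H2-M series 6 were highest in WT 3. H2-T22, H2-Q6 and H2-Q7, named here after their values were seen, measured 39.6, 18.8 and 8.02 FPKM in WT 3, 3.09, 3.17 and 3.27 times the mean of the other WT libraries.

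Peptide loading had 1 gene lower and 0 higher of 9, against 7.46% of all genes called lower. Canx, the chaperone calnexin that holds new heavy chains, fell from 50.6 ± 6.51 to 33.2 ± 2.10 FPKM (log2 -0.59 ± 0.12, limma adjusted p = 0.0137) and was still called with each library left out in turn. That call ended with the library total as denominator and with replicate number and GC trends both in the fit. Erap1, which trims peptides to length, measured 7.13, 8.13, 14.3 and 7.76 FPKM in WT, against 5.99, 6.16, 4.65 and 5.33 FPKM in OGTBKO libraries (log2 -0.66, limma adjusted p = 0.0562). Its groups did not overlap, and without WT 3 it was called lower (adjusted p = 0.0378), which made 2 of 9 lower, against 7.56% of all genes. Calr (log2 -0.03) and Pdia3 (log2 0.03), which serve folding of many proteins in the endoplasmic reticulum, lay near 0.

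Regulators of class I transcription had 1 gene higher and 1 lower of 13, near the shares of all genes called higher (8.11%) and lower (7.46%). Nfyc, a subunit of the Y box binding factor, rose by a log2 of 0.34 (limma adjusted p = 0.0344) and Creb1, of the factor family that binds the X2 box, fell by 0.41 (adjusted p = 0.0363). Each call ended in 6 of the 8 fits with 1 library left out and with GC and length trends removed, and Creb1 was also lost without WT 3 (0.0596). Irf1, named here after its values were seen, measured 6.03 FPKM in WT 3 and 3.19 to 4.52 FPKM in the others. It did not differ between genotypes (log2 -0.07, limma adjusted p = 0.816). WT 3 was the highest library for 3 of the 13 regulators. In interferon sensing 2 of 10 were lower and 0 higher, against 7.46% and 8.11% of all genes (2 lower and 1 higher without WT 3). Irf9 fell from 4.93 ± 1.12 to 2.26 ± 0.344 FPKM (limma adjusted p = 0.00875, called in all 20 alternatives). Its partner Stat2 fell by a log2 of 0.71 (limma adjusted p = 0.0497, lost in 6 of the 8 fits with 1 library left out, 0.0686 without WT 3). Ifng held at most 2 reads in any library (at most 0.111 FPKM) and was listed at 0 in WT 2, WT 3, WT 4, OGTBKO 1 and OGTBKO 4.

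Of 24 tested interferon-induced genes outside the class I route 7 were lower (Oas2, Oasl2, Ifi27, Rtp4, Xaf1, Ddx58 and Ifih1) and 0 higher, against 7.46% and 8.11% of all genes, with a median log2 change of -0.81. The count was 4 with the library total as denominator, where Oas2, Oasl2 and Ddx58 were lost, and 6 with GC and length trends removed, where Ddx58 and Ifih1 were lost and Bst2 was called. Without WT 3 the median was -0.57 and 7 were lower, of which Oas1a and Gbp7 took the place of Oasl2 and Ddx58. The difference between this list and the 10 genes was not tested. Ifi27 (log2 -0.83) and Rtp4 (log2 -1.57) were called in all 20 alternatives. Over the 8 fits with 1 library left out, the call ended in 7 for Oas2 and in 7 for Ddx58. It ended in 6 of these fits for Oasl2, 5 for Ifih1 and 2 for Xaf1. WT 3 was the highest library for 15 of the 24. Gbp2, Igtp and Iigp1, interferon-induced GTPases named here after their values were seen, measured 45.3, 23.7 and 45.4 FPKM in WT 3, against at most 12.2, 6.11 and 7.72 FPKM in the other 7 libraries. Class II presentation had 6 of 7 genes higher and 0 lower (7 higher without WT 3, and 5 with GC and length trends removed, where H2-Ab1 was lost), against 8.11% of all genes called higher. The 6 were H2-Aa, H2-Ab1, H2-Eb1, H2-DMa, H2-DMb1 (log2 1.32, limma adjusted p = 0.00236) and Cd74 (log2 1.36, adjusted p = 0.0145). With 1 library left out, the call ended in 6 of the 8 fits for H2-Ab1, in 4 for H2-Aa and in 2 for H2-Eb1. It held in each of these fits for H2-DMa, H2-DMb1 and Cd74. WT 3 was highest for 0 of the 7.

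**Figure D4:**
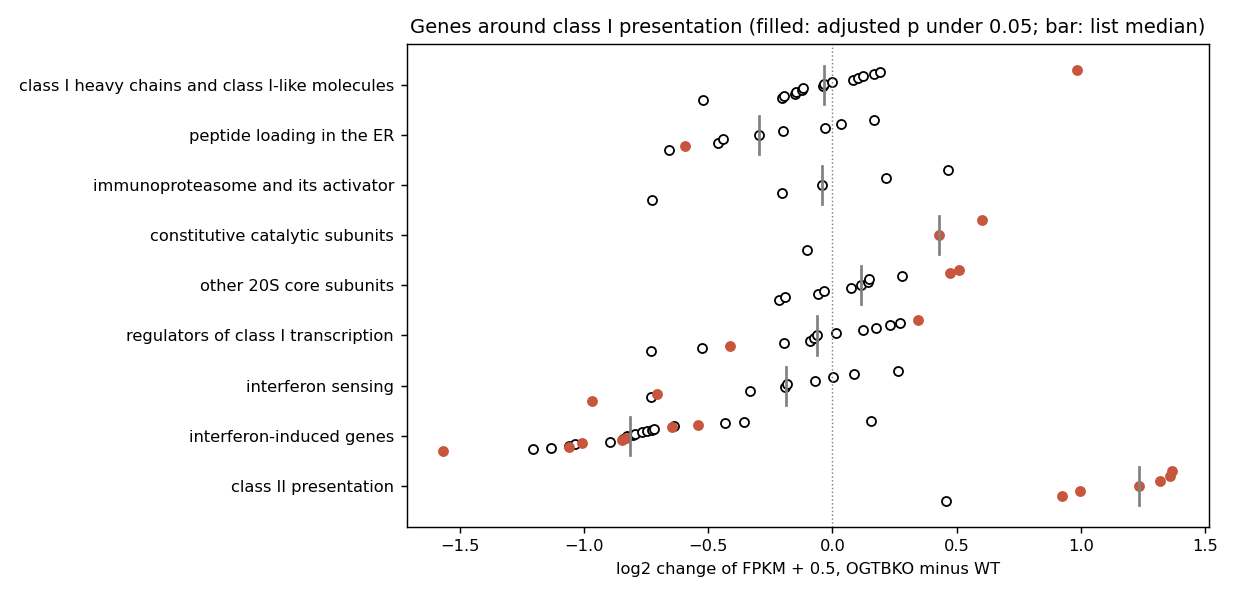
Log2 change of FPKM + 0.5, OGTBKO minus WT (x axis), of each tested gene in 9 lists around class I presentation (y axis), 1 point per gene, filled where the limma adjusted p is under 0.05, with the list median as a grey bar. Class II genes lie to the right (median 1.23), interferon-induced genes to the left (median -0.81), and class I heavy chains and like molecules around 0 (median -0.03).

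Markers of cells that could bring class I transcripts are given beside these values, and their part in the results was not tested. Counts of markers called stand beside 8.11% of all genes called higher and 7.46% called lower. Of 5 leukocyte markers 1 was called, Cd52 (higher; adjusted p = 0.0366, lost in 12 of 20 alternatives, 0.0555 without WT 3), and their summed level was 26.8 to 35.3 FPKM in WT, lowest in WT 3, and 20.6 to 45.6 FPKM in OGTBKO libraries. Of 8 macrophage markers 0 were called in limma (2 at an unadjusted p under 0.05), and their sum was 152 FPKM in WT 3, 234 to 305 in the other WT libraries and 217 to 520 in OGTBKO libraries. Most of that sum was Lyz2; without it the sums were 61.3 to 77.4 FPKM in WT, lowest in WT 3, and 69.4 to 101 FPKM in OGTBKO libraries. The median log2 change of the 8 macrophage markers was 0.12, and 3 of them were below 0. Lyz2 had a log2 change of 0.85, and of those below 0 Mrc1 had -0.62 and Fcgr1 -0.43. T and NK cell markers summed to 3.10 FPKM in WT 3, 1.06 to 2.14 in the other WT libraries and 1.09 to 2.73 in OGTBKO libraries. Of these 11 markers 1 was high enough to test and was not called. Cd3d and Cd3g, with at most 5 and 4 reads in any library, were listed at 0 in WT 2, WT 3 and OGTBKO 3. Cd8a and Gzma, with at most 11 and 10 reads, were highest in WT 3 (0.286 and 0.939 FPKM). Every other marker of the 11 was highest in another library. Cd3e was lowest in WT 3, and Cd8b1 measured 0.127 FPKM there against 0.195 FPKM in WT 1. B cell markers summed to at most 1.44 FPKM in any library. Of 3 tested dendritic cell markers Itgax was higher (log2 1.48, limma adjusted p = 0.00425, and 0.00864 without WT 3), and Flt3, Xcr1 and Batf3 were below the minimum level. Endothelial markers summed to 112 to 153 FPKM in WT, highest in WT 3, and 140.0 to 149 FPKM in OGTBKO libraries. Of these 7 markers 1 was called, Cdh5 (log2 0.35, limma adjusted p = 0.0413). The Cdh5 call was lost in 13 of 20 alternatives, among them 7 of the 8 fits with 1 library left out, though not without WT 3 (0.0421). Its adjusted p was 0.0836 with GC and length trends removed and 0.0607 with the library total.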

How the data were processed

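RNA of brown adipose tissue was sequenced in 4 WT and 4 OGTBKO samples. The tools listed in the submitters' processing notes are HISAT2 2.0.5 and featureCounts 1.5.0-p3, and the build is mm10. The authors deposited 1 table of FPKM values per gene; 98.3% of its genes had the same coordinates in GENCODE M21. Times gene length, these values were whole multiples of 1 read (tolerance 0.001), which gave reads per gene. The deposited denominators were 0.790 (WT 3) to 1.13 (OGTBKO 3) times the library's total, so values were already scaled between libraries.

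The FPKM values were analysed as log2(FPKM + 0.5), which understates changes of low genes, for the 13171 genes with a mean of at least 0.5 FPKM, with limma 3.58.1 in R 4.3.3 (eBayes with trend, two-sided, no covariates, Benjamini-Hochberg over all genes, called at adjusted p under 0.05). Adjusted p values of genes all come from limma. Errors are SDs of FPKM and SEs of log2 changes. Ratios were compared by exact permutation over 70 assignments. GC content is that of the longest GENCODE transcript. The steps were tested on simulated reads. Same-group libraries differed by a chi-square of 16.0 to 99.6 per degree of freedom, more than counting noise gives.

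The 10 genes and the lists were chosen with earlier results of these data known. The rule for naming allowed the 10 genes, Ogt, the constitutive partners, of each list the genes called and up to 6 with the smallest p, and overlapping genes of at least 0.5 FPKM. Some genes outside that rule are also named, among them Irf1, Calr, Pdia3 and Ifng. The values of 1 gene in the lists are left out of the text.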

Additional observations from a re-analysis of the deposited data

Results flagged for a closer look

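Values far from the rest of their group of 4 (a gap to the nearest library above Dixon's 95% critical value) were found for 12 of 148 groups of values tested; chance gives about 1 in 20. WT 3 was the library in 11 of the 12.

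Among the proteasome subunits WT 3 was high for Psmb8 (7.25 FPKM, against 2.48 to 3.19 in the other WT libraries), Psmb9 (6.48 against 1.62 to 1.81) and Psmb10 (13.3 against 6.24 to 7.21). It was high too for the ratios Psmb8 to Psmb5 (0.117 against 0.0327 to 0.0428) and Psmb9 to Psmb6 (0.288 against 0.0719 to 0.0784). In peptide loading it was high for Erap1 (14.3 FPKM against 7.13 to 8.13) and Tapbpl, a relative of tapasin (12.7 against 4.16 to 5.54). The heavy chain H2-T22 (39.6 FPKM against 10.9 to 14.4) and the interferon-induced Gbp2 (45.3 against 7.68 to 10.5), Igtp (23.7 against 4.99 to 6.11) and Iigp1 (45.4 against 3.49 to 7.72) showed the same library high. The remaining value was that of Psmb6 in OGTBKO 2, low at 25.3 FPKM against 32.3 to 33.7 in the other OGTBKO libraries.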

How the results depend on the processing

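The count of the 10 genes called stayed at 0 in 17 of 20 alternatives and was 1 (Psmb10) without WT 3, with array weights, and when WT 3 and the trends on GC and length were both taken out (range 0 to 1 over the fits with 1 library left out). Over all genes the count went from 2050 to 1229 with no filter on low values, 1237 with the library total as denominator (987 higher and 250 lower, where the median log2 change of all genes was 0.09), 3516 with array weights, and 692 to 2122 with 1 library left out; the cause was not tested. Tap1, Tap2, Tapbp, Psmb8, Psmb10 and Nlrc5 kept the sign of their log2 change in all 20 alternatives. With 1 library left out, H2-K1 ranged from -0.25 to 0.046, B2m from -0.33 to 0.038 and Psmb9 from -0.36 to 0.21, each above 0 without WT 3, and Psmb10 to Psmb7 ranged from -0.22 to 0.045. Array weights gave 0.0016 for H2-K1, 0.049 for B2m and 0.065 for Psmb9. H2-D1 stood at -0.0075 with the GC and length trend removed, and without WT 3 as well B2m was at 0.19 and Psmb9 at 0.084. The library total as denominator left 8 of the 10 genes highest in WT 3, and the total of nuclear genes 9. The alternatives with that total, with voom weights and with both WT 3 and the trend taken out were chosen after seeing the data.

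With the replicate block 888 genes were called, and 545 with the trend removed too, where H2-D1 was at -0.0075; 0 of the 10 were called in either. Whether the numbers pair the samples was not settled by a check of same-numbered libraries. Their deviations correlated at 0.22 for number 1, 0.17 for number 2, 0.014 for number 3 and -0.0070 for number 4. Of the 8 libraries 4 correlated best with their own number. The H2-D1 to H2-K1 difference of 0.32 had an exact p of 0.125 when paired, the smallest that 4 pairs allow. This ratio was picked after its values were seen, so the paired p is no test of it either. The 2 count-model tests listed as alternatives were not run, since the deposited unit is FPKM.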
